A study of Rattus norvegicus with 40 samples.

Results

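Tumor nodules of the liver, taken 6 weeks after the last dose of diethylnitrosamine (DEN), were compared with liver of rats of the same age that had received no DEN. The members were the 12 RNA-seq libraries, of 40 in the series, that the sample labels place at 20 weeks as a nodule of a DEN-treated rat or as liver of a no DEN rat. There were 8 nodule libraries, 2 from each of 4 rats (F03, H25, H26 and H28), and 4 no DEN libraries, 1 from each of 4 rats (H13, H14, H15 and H16). All were Fischer 344 males. DEN-treated rats were 7 weeks old at the first of the weekly intra-peritoneal injections of 50 mg/kg, received them for 14 weeks and then had 6 weeks without DEN. The sources used here do not say whether no DEN rats received vehicle alone. The series also holds nodules and no DEN liver at 14 weeks, with 4 rats each, and the non-tumoral (NT) liver of the same 4 nodule-bearing rats at 20 weeks, and these served only to show where the nodules at 20 weeks differed. Nodules of the same rat share an animal, so their counts were added and the rat was the unit. All no DEN rats carry a number with H, and F03 is the only F rat here, so an effect of the letter cannot be told apart from an effect of DEN in that rat.

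DEN is activated by cytochromes P450 of the hepatocyte to an ethylating agent that damages DNA, and repeated dosing in rats gives foci of altered hepatocytes, nodules and hepatocellular carcinoma in a scarred liver. Rat foci and nodules have long been recognised by enzymes that normal adult hepatocytes barely make, among them the placental glutathione S-transferase Gstp1 and gamma-glutamyl transferase Ggt1. Many genes of the G2 and M phases carry CCAAT boxes and a cell cycle genes homology region in their promoters, through which the DREAM complex keeps them silent in resting cells and MYB and FOXM1 complexes raise them in dividing cells. Many genes of antioxidant defence and glutathione synthesis carry an antioxidant response element, at which the factor NRF2 binds.

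The promoters of 3 genes of mitosis and of 1 gene of glutathione synthesis are shown. All 4 genes rose in nodules, as described further on. They were picked by hand, and all 4 hold the marked matches, which some other genes that rose did not hold. Cdk1, the kinase that drives entry into mitosis, lies on the plus strand and the window is chr20:19265043-19265342. Ccnb2, a B-type cyclin that binds Cdk1, lies on the minus strand, with the window chr8:79981609-79981908. Plk1, a mitotic kinase, lies on the plus strand (chr1:186147408-186147707). Gclm, the modifier subunit of glutamate-cysteine ligase, which makes the first step of glutathione synthesis, lies on the plus strand (chr2:213031885-213032184). Each run is read from RefSeq on build GRCr8, 5′ to 3′ on the strand of the gene, from 250 bases before to 50 after the start. Capitals mark CCAAT and TTTGAA on either strand in the first 3 and TGACNNNGC on either strand in the last.
Cdk1: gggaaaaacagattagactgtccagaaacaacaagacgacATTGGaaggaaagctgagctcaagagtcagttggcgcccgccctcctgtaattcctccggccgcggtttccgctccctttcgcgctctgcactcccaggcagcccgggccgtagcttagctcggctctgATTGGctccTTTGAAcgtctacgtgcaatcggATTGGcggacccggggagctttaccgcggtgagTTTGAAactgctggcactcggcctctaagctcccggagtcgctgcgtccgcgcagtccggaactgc
Ccnb2: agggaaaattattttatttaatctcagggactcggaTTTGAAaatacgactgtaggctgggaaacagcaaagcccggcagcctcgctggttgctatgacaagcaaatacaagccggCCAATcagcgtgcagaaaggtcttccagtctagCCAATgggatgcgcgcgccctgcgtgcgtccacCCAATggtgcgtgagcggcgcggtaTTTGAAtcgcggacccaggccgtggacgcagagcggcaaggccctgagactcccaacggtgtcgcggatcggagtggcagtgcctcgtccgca
Plk1: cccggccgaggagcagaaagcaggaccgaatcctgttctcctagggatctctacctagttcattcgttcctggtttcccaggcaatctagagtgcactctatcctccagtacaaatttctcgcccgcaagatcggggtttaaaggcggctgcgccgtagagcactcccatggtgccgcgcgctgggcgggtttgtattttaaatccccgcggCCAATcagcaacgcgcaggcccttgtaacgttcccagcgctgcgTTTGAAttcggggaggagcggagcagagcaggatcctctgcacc
Gclm: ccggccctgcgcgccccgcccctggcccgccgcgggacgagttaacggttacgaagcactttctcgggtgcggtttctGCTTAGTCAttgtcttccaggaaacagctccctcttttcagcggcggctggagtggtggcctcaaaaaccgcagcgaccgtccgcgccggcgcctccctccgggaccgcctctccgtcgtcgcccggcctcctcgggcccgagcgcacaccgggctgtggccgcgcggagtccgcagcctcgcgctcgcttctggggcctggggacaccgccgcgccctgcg
The Cdk1 and Ccnb2 windows each held 3 CCAAT and 2 TTTGAA matches, the Plk1 window 1 of each, and the Gclm window 1 TGACNNNGC match. Of 33469 promoter windows of this length for rat, 37.5% held CCAAT on either strand, 18.3% held TTTGAA and 7.41% held both, so single matches are frequent. TGACNNNGC was found in 12.1%. Among the NRF2 targets tested, 24 of 30 had a promoter in the table and 6 of these held TGACNNNGC. For the cell cycle list and for the NRF2 targets that rose the same count was void, since the table held a promoter for 31 of 43 and 20 of 26 genes, fewer than 80%. A share over the genes tested was void as well, with a promoter for 8549 of 11199. These matches describe letters in a window and not binding.

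Counted read pairs ranged from 23686378 to 39355849 in nodule libraries and from 21708709 to 29636387 in no DEN libraries. With the nodules of a rat summed, a rat with nodules had 49214211 to 63990791 pairs, more than any no DEN rat. Albumin, the main plasma protein made by hepatocytes, took 10.4% to 17.4% of counted pairs in nodules and 17.8% to 18.98% without DEN. The share of pairs aligned to several places was 16.3% in nodule 1 of F03 and 9.38% to 10.9% in the other nodules. Pairs not lying wholly within the exons of a gene took 22.96% to 26.3% in nodules and 22.18% to 22.77% without DEN, so the groups did not overlap, and the part of this in the differences between groups was not tested. Libraries of the same group differed by more than read sampling gives (lowest ratio of chi-square to its degrees of freedom 16.5), and none was a copy of another. Rats were separate animals.

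Of 11199 genes tested, 4347 (38.8%) differed between nodules and no DEN liver, with 2642 (23.6%) higher and 1705 (15.2%) lower in nodules. A gene was called where the log2 fold change was at least 0.5 in size and the adjusted p of edgeR's quasi-likelihood test at most 0.05. The first principal component held 81.1% of the variance and ran from -71.7 to -32.9 in nodules and from 47.9 to 61.3 without DEN, so the groups were apart, with the nodules of H25 nearest to no DEN liver. Values of the 4 and the 4 rats did not overlap for 5502 genes (49.1%). With upper-quartile scaling, which moved the median log2 fold change of all genes by 0.136, 3165 genes were higher and 1166 lower. With so many genes moved, each gene list is read against these shares. The 27 lists name 815 genes, of which 690 were tested, 72 had too few counts and 53 were not among the genes counted. Levels are read counts divided by library size (CPM) after scaling by the trimmed mean of M values (TMM), and single rats are always given in the order F03, H25, H26, H28 for nodules and H13, H14, H15, H16 for no DEN liver. Means are given ± SD over 4 rats. The plot of the members of each list shows which lists moved to one side and which were divided.

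**Figure D1:**
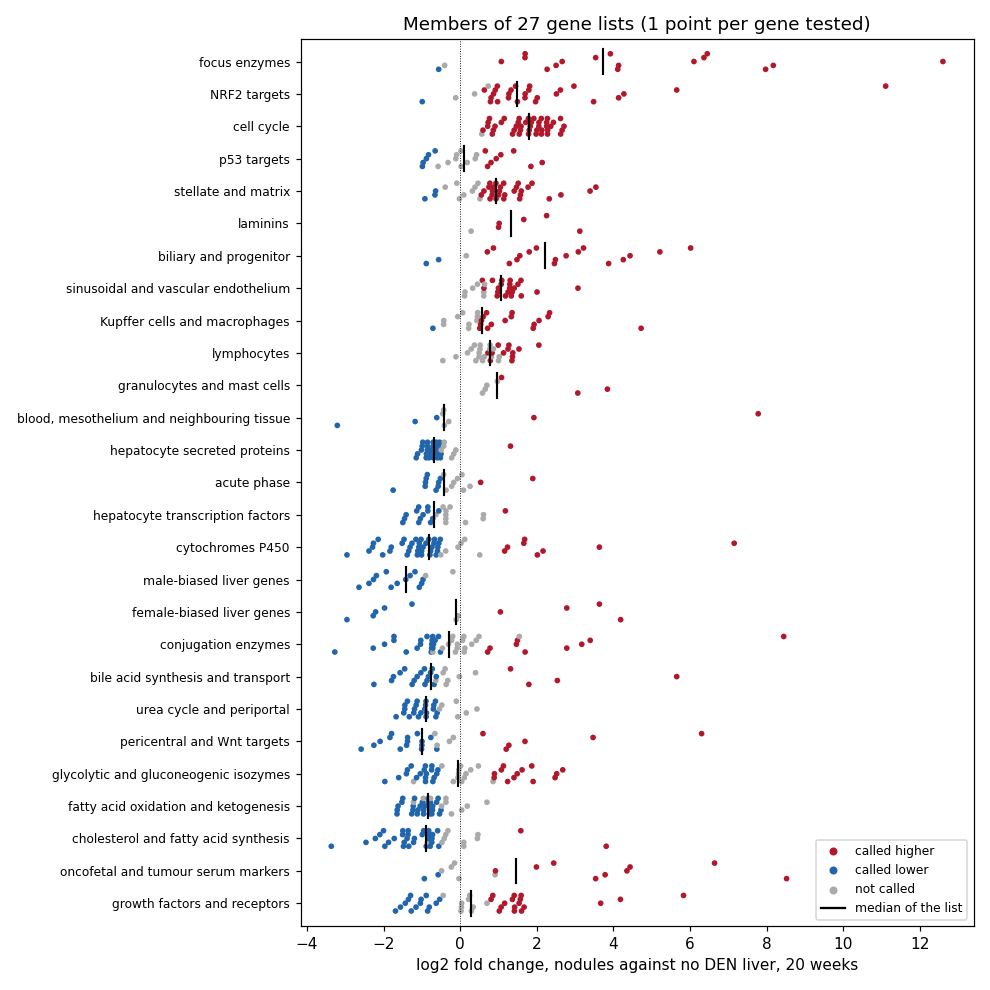
Log2 fold change of nodules against no DEN liver at 20 weeks (x axis) for every tested member of 27 gene lists (rows), 1 point per gene, with the list's median as a black bar. Red points were called higher, blue points lower and grey points were not called. The points of the cell cycle list lie to the right of 0 with a median of 1.8, and those of the male-biased liver genes to the left with a median of -1.42.

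The genes that rose most had no or almost no counts in no DEN liver. Nefl, the light chain of neurofilaments, had 68.6, 19.6, 80.5 and 52.3 CPM in the nodules of the 4 rats and 0 counts in all 4 no DEN rats. The nodules of all 4 rats held the transcript, those of H25 least. Against a floor of 3 counts over the no DEN group, Nefl was at least 1550-fold higher. Defb1, an antimicrobial beta-defensin, was at least 769-fold higher, the monocarboxylate carrier gene Slc16a5 at least 658-fold, the homeobox gene Vsx1 at least 310-fold, Klhl14 at least 234-fold, the urate carrier Slc22a12 at least 190-fold and Slc10a4, a relative of the bile acid carriers, at least 148-fold, each from 0 counts. These bounds use the mean of the 4 rats, and Slc22a12 had 2.8, 2.15, 5.84 and 16.4 CPM, with H28 well above the other rats. Dnaaf1, an assembly factor for dynein arms of cilia, had 1 count over the no DEN group and 31.1, 33, 66.7 and 133 CPM in nodules, a ratio of 5790 (95% counting interval 1040 to 229000). Nefm, the medium neurofilament chain, gave a ratio of 1200 (95% counting interval 332 to 9920), and Pcp4, a calmodulin-binding protein, 623 (95% counting interval 213 to 3020). These intervals cover counting error only. Trim54 and Bex1, at 0.045 ± 0.0521 and 0.0714 ± 0.113 CPM without DEN, reached 30.9 ± 20.7 and 27.3 ± 11 CPM in nodules. Nefm in H25, at 6.47 CPM, lay far below the other 3 rats with nodules, which had 35.3 to 36.4 CPM.

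Enzymes by which rat preneoplastic foci are known rose together. In this list 16 of 18 tested genes were higher in nodules, against 23.6% of all genes, and 1 was lower, with a median log2 fold change of 3.73 against 0.01 for all genes. Gstp1 had 2488, 1212, 2824 and 3453 CPM in nodules and 11.1, 7.92, 7.29 and 8.19 CPM without DEN. Its values in nodules lay in another range from those in no DEN liver, and H25 was lowest. The log2 fold change was 8.18 (SE 0.38, edgeR adjusted p = 2.26e-06). Aldh3a1, an aldehyde dehydrogenase of rat hepatocellular tumors that normal liver does not make, had 181, 98.9, 462 and 220.2 CPM in nodules and 3 counts in all over the no DEN group, a ratio of 6600 (95% counting interval 2260 to 32000). Akr1b8, an aldo-keto reductase, went from 1.66 ± 0.266 to 416 ± 187 CPM, Ggt1 from 0.486 ± 0.0836 to 40.4 ± 22.1 and the intestinal glutathione peroxidase Gpx2 from 0.959 ± 0.341 to 83.8 ± 34.9. Akr7a3, which reduces aflatoxin dialdehyde, rose from 80.5 ± 31.6 to 1394 ± 482 CPM, and the epoxide hydrolase Ephx1 from 952 ± 196 to 3083 ± 737. Abcb1b, a P-glycoprotein, rose by 2.27 (SE 0.31) on the log2 scale. The member that fell was Cp, the ferroxidase ceruloplasmin, by 0.56 (SE 0.15), or by 0.49 without H28, short of the threshold. In 15 of the 16 genes that rose, the nodules of H25 had the lowest value of the 4 rats.

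**Figure D2:**
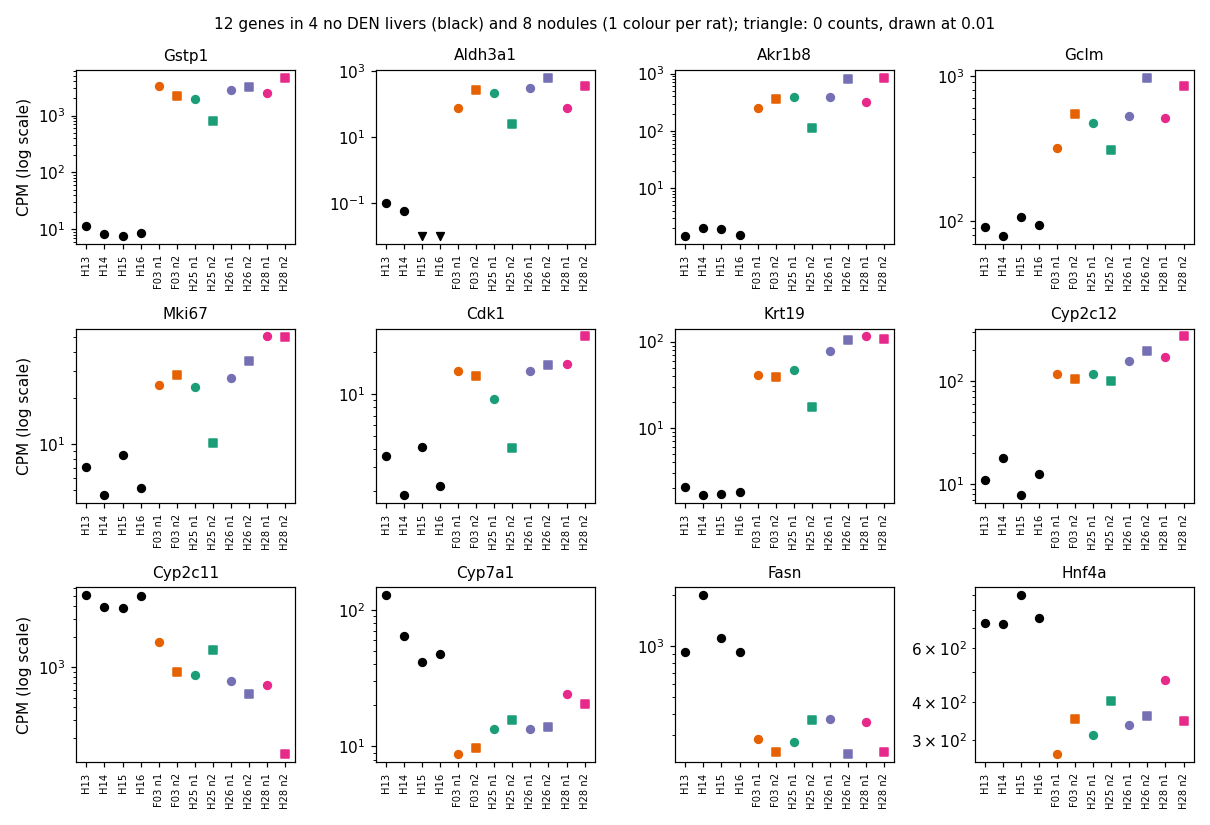
Levels in CPM on a log axis for 12 genes in each of the 12 libraries (x axis), 4 no DEN livers in black and 8 nodules in 1 colour per rat (circle nodule 1, square nodule 2); a triangle marks 0 counts. Gstp1 lay between 785 and 4629 CPM in single nodules and between 7.61 and 11.7 CPM in no DEN livers, here scaled over the 12 single libraries, while Cyp2c11, Cyp7a1, Fasn and Hnf4a lay lower in nodules.

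Known targets of NRF2 were higher in 26 of 30 tested genes and lower in 1, with a median log2 fold change of 1.47. Slc7a11, the cystine carrier that feeds glutathione synthesis, had 69.1, 58.5, 196 and 123 CPM in nodules against 0, 0.0543, 0.0479 and 0.0848 CPM without DEN, and no rat overlapped. Gclm, whose promoter with its single match is printed with those of the mitotic genes, had 427, 359, 715 and 662 CPM against 85.8, 75.1, 102 and 90.3 CPM (log2 fold change 2.62, SE 0.23, edgeR adjusted p = 3.66e-05). All 4 rats with nodules were above all no DEN rats, with H25 lowest and H26 highest. Gclc, the catalytic subunit of the same enzyme, rose by 2.51 (SE 0.27) on the log2 scale, the quinone reductase Nqo1 by 4.14 (SE 0.39), sulfiredoxin Srxn1 by 3.48 (SE 0.30) and thioredoxin reductase Txnrd1 by 1.97 (SE 0.26). The carrier Abcc3, which exports conjugates across the basolateral membrane, went from 2.05 ± 0.315 to 103 ± 33.5 CPM, and Gsta3 from 13.9 ± 8.19 to 269 ± 95.7 CPM. Hmox1, heme oxygenase, had the smallest change of the 6 targets taken as defining, with 48.7, 42.9, 67.9 and 63.8 CPM against 28.7, 33.1, 38.5 and 27.4 CPM (log2 fold change 0.81, SE 0.16, edgeR adjusted p = 0.00244). Me1, malic enzyme, which also supplies NADPH for fatty acid synthesis, was the member that fell, by 0.99 (SE 0.21) on the log2 scale. Gsta genes are close copies of each other, and pairs that matched several of them were not counted, so their single values are uncertain.

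Genes of the cell cycle rose almost as a whole. 42 of 43 tested genes were higher and none was lower, with a median log2 fold change of 1.8. Mki67, the proliferation antigen Ki67, had 25.2, 15.1, 29.2 and 46.9 CPM in nodules and 6.79, 4.45, 8.15 and 4.96 CPM without DEN. Cdk1, with 3 CCAAT and 2 TTTGAA matches in its promoter, had 13.2, 5.9, 14.5 and 20.4 CPM against 3.42, 1.79, 3.98 and 2.08 CPM. Both genes were lowest in H25 and highest in H28, and the groups did not overlap for either. Mki67 rose by 2.26 (SE 0.33, edgeR adjusted p = 0.000518) and Cdk1 by the same amount, 2.26 (SE 0.38, edgeR adjusted p = 0.000947), on the log2 scale. Ccnb2 went from 1.33 ± 0.767 to 5.54 ± 2.73 CPM and Plk1 from 1.1 ± 0.444 to 7.02 ± 3.24 CPM. Top2a, the topoisomerase that untangles chromosomes, went from 5.18 ± 1.67 to 19.7 ± 7.66 CPM. The 4 largest changes were in genes of G2 and M, with Cenpf, a kinetochore protein, at 2.71 (SE 0.32), Plk1 at 2.66 (SE 0.40), cyclin Ccnb1 at 2.62 (SE 0.45) and the kinesin Kif20a at 2.62 (SE 0.37). Of genes of DNA replication, the sliding clamp Pcna rose by 0.73 (SE 0.15), the helicase subunit Mcm2 by 1.07 (SE 0.23) and thymidylate synthase Tyms by 0.59 (SE 0.14). Mybl2, the MYB factor of the complex that raises mitotic genes, was the tested member that was not called, at 1.78, 1.55, 2.22 and 2.35 CPM in nodules against 1.09, 2.28, 0.479 and 1.53 CPM without DEN, with overlapping groups. For all 42 genes that rose, H25 was the lowest of the 4 rats with nodules.

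Targets of p53, the factor that answers DNA damage, were divided. Of 22 tested, 8 were higher and 5 lower, shares of 36.4% and 22.7% against 23.6% and 15.2% of all genes, and the median log2 fold change was 0.10. Cdkn1a, the p21 inhibitor of cyclin-dependent kinases, had 47.4, 50.0, 50.5 and 48.6 CPM in nodules and 33.6, 49.6, 32 and 57.9 CPM without DEN. The nodule values lay within the wider range of no DEN rats (log2 fold change 0.18, SE 0.17, edgeR adjusted p = 0.396). Bax, which opens mitochondria in cell death, had 24, 18.8, 20.5 and 24.5 CPM in nodules and 17.3, 15.8, 16.3 and 17.5 CPM without DEN. Its groups did not overlap, and its log2 fold change of 0.39 (SE 0.10, edgeR adjusted p = 0.0101) was under the threshold, which it passed, at 0.53, with upper-quartile scaling or nodule 1 alone. Ccng1, cyclin G1, was at 44.3 ± 3.05 CPM in nodules and 43.7 ± 8.23 CPM without DEN. Mdm2, the ubiquitin ligase that degrades p53, was higher in every rat with nodules, at 33.1, 30.2, 36.5 and 47.8 CPM against 18.9, 20.2, 21.6 and 23.8 CPM (log2 fold change 0.80, SE 0.14). Ckap2, which also belongs to the mitotic spindle, rose by 2.14 (SE 0.43), Ddit4 by 1.85 (SE 0.40), the stress cytokine Gdf15 by 1.4 (SE 0.33) and the death receptor Fas by 1.06 (SE 0.13). Sestrins Sesn1 and Sesn2 fell by 0.99 (SE 0.13) and 0.88 (SE 0.17), Plk2 by 0.97 (SE 0.35) and Phlda3 by 0.83 (SE 0.09). Plk2 missed the adjusted p in edgeR, at 0.0588 to 0.109, without F03, H25, H26, H28, H15 or H16, and without H16 its log2 fold change was -0.48, under the threshold too.

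Drug-metabolising cytochromes P450 were mostly lower. 35 of 49 tested genes fell and 8 rose, with a median log2 fold change of -0.82. Cyp2e1, which activates DEN, had 1596, 1779, 903 and 479.8 CPM in nodules and 2855, 2511, 2488 and 2489.8 CPM without DEN. All nodule values were below all no DEN values, and the lowest was in H28. The fall was 1.12 (SE 0.34, edgeR adjusted p = 0.0184) on the log2 scale. Cyp1a2 fell from 544 ± 109.5 to 152 ± 79.5 CPM, Cyp2c7 from 2863 ± 839 to 368 ± 226 CPM, and Cyp3a9 and Cyp4a2, an omega-hydroxylase of fatty acids, by 2.29 (SE 0.41) and 2.27 (SE 0.53) on the log2 scale. Cyp3a2, a main drug-metabolising form of male liver, had 221, 447, 179 and 112 CPM in nodules and 706, 434, 385 and 487 CPM without DEN, and its ranges overlapped. Without H26 the edgeR adjusted p of Cyp2e1 was 0.052, and that of Cyp3a2 was 0.0565 to 0.0907 without F03, H26, H28, H13 or H16. The P450 genes that rose included Cyp2c24, from 0.153 ± 0.0797 to 22.5 ± 5.38 CPM, Cyp2c12, Cyp1a1, the target of the aryl hydrocarbon receptor, by 2.16 (SE 0.29), and Cyp4b1 by 2.01 (SE 0.21). Genes of the Cyp2c, Cyp3a and Cyp4a families have near-identical copies, and the dropped multiply aligned pairs make their single values uncertain.

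Sex-biased genes of rat liver, which are set by the pattern of growth hormone, moved in both lists. Of 15 male-biased genes tested, 13 fell and none rose, with a median of -1.42. Cyp2c11, the main P450 of male rat liver, had 1190.2, 1159, 586 and 342 CPM in nodules and 4867, 3766, 3671 and 4795 CPM without DEN. No values overlapped, and H28 was lowest (log2 fold change -2.38, SE 0.36, edgeR adjusted p = 0.000611). Cyp2c13, another male P450, fell by 0.97 (SE 0.27), the globulin gene listed as LOC259244 from 1805 ± 352 to 396 ± 196 CPM, and Obp3, an alpha-2u-globulin relative, from 457 ± 202 to 73.2 ± 40.6 CPM. Of 11 female-biased genes, 4 rose and 5 fell. Cyp2c12, the counterpart of Cyp2c11 in female liver, had 103, 101, 167 and 212 CPM in these males with nodules and 10.4, 17, 7.53 and 12.1 CPM without DEN, a log2 fold change of 3.63 (SE 0.31). A1bg rose from 0.696 ± 0.455 to 13 ± 8.89 CPM, with H25 far above the other rats at 26.2 CPM, Sult2a2, a sulfotransferase of steroids, from 0.314 ± 0.0545 to 2.15 ± 1.02 CPM, and the cofactor Trim24 by 1.05 (SE 0.25). The female-biased genes that fell were Cyp2c7, the sulfotransferases Sult2a1 (by 2.27, SE 0.26) and Sult1e1 (by 1.98, SE 0.30), the steroid reductase Srd5a1 (by 2.21, SE 0.23) and Cyp2a1 (by 1.26, SE 0.20). The male-biased list thus moved one way and the female-biased list both ways.

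Conjugation enzymes, which attach glucuronic acid, sulfate or glutathione, fell more often than genes at large. Of 45 tested 20 were lower (44.4%) and 9 higher (20.0%), against 15.2% and 23.6% of all genes. Ugt2b7 rose from 3 counts over the no DEN group to 13.5 ± 6.8 CPM, and Ugt1a6 and Ugt1a7c rose by 3.39 (SE 0.25) and 3.17 (SE 0.38). Other forms of the Ugt1a and Ugt2b families fell, Ugt1a5 by 1.73 (SE 0.20) and Ugt2b1 by 1.41 (SE 0.09). Ugt1a1, which conjugates bilirubin, fell by 1.04 (SE 0.25), and the sulfotransferases Sult1a1 and Sult1c3 by 0.57 (SE 0.15) and 1.73 (SE 0.29), Sult1a1 by 0.47 without H26. The glutathione S-transferase Gstm1 rose from 1305 ± 228 to 4226 ± 978 CPM. The aldehyde oxidases also parted, Aox1 rising by 1.49 (SE 0.17) and Aox3 falling from 119 ± 19.1 to 12.3 ± 7.6 CPM. Ugt1a forms share all but their first exon and Ugt2b genes are close copies, so their single values are uncertain.

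Bile acid genes were lower in 17 of 28 tested members and higher in 4. Cyp7a1, the rate-limiting enzyme of bile acid synthesis, had 8.81, 13.9, 12.7 and 20.6 CPM in nodules and 121, 61.5, 39.8 and 45.3 CPM without DEN. H13 was far above the other no DEN rats, yet all 4 rats with nodules lay below the lowest of them (log2 fold change -2.26, SE 0.37, edgeR adjusted p = 0.000878). Cyp8b1, which makes cholic acid, fell by 1.45 (SE 0.27), the uptake carriers Slc10a1 and Slco1b2 by 1.2 (SE 0.27) and 1.79 (SE 0.32), the organic anion carrier Slco1a1 by 1.74 (SE 0.31), the bile acid ligase Slc27a5 by 1.57 (SE 0.33) and the canalicular bile salt pump Abcb11 by 1.03 (SE 0.20). The 4 that rose were exporters: Abcc3 and Abcc4 of the basolateral membrane, by 5.65 (SE 0.27) and 1.79 (SE 0.24), and the sterol half-transporters Abcg5 and Abcg8, by 1.31 (SE 0.19) and 2.54 (SE 0.41).

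Periportal genes fell: 22 of 28 tested members were lower and none was higher, with a median of -0.90. Cps1, the entry enzyme of the urea cycle, had 880.2, 1496, 1238 and 1007 CPM in nodules and 2422, 3217, 2316 and 2758 CPM without DEN, with no overlap and the lowest value in F03. Ass1 fell by 1.47 (SE 0.19) and Otc by 0.89 (SE 0.13). The glutaminase Gls2 fell by 1.45 (SE 0.21) and the histidine-degrading Hal by 1.45 (SE 0.20). Tat, which degrades tyrosine, fell by 1.67 (SE 0.35), with 1 no DEN rat, H14, at 1321 CPM against 523 to 596 CPM in the other 3.

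Pericentral genes and Wnt targets, which mark hepatocytes around the central vein, also fell in 15 of 25 tested members. The 6 that rose were 24.0% of the list, near the 23.6% of all genes. Axin2, a direct target of beta-catenin, had 6.22, 5.67, 5.35 and 5.2 CPM in nodules and 15.2, 14.6, 13.2 and 15.4 CPM without DEN. The spread within each group was small beside the gap (log2 fold change -1.38, SE 0.10, edgeR adjusted p = 2.01e-05). Tbx3, a T-box factor, went from 9.37 ± 1.82 to 1.55 ± 0.457 CPM and Oat, ornithine aminotransferase, from 308 ± 81.2 to 72.1 ± 18.4 CPM, and the Wnt antagonist Rnf43 fell by 1.57 (SE 0.17). Glutamine synthetase Glul had 285, 333, 198 and 285 CPM against 489.8, 321, 334 and 539 CPM, and the ranges overlapped (log2 fold change -0.61, SE 0.21, edgeR adjusted p = 0.0305). Glul was not called without F03, H26, H28, H13 or H16 (edgeR adjusted p = 0.0502 to 0.0933). Against this direction, the ammonium channel Rhbg rose from 2.04 ± 0.995 to 22.9 ± 5.96 CPM and the carbonic anhydrase Car2 from 4.62 ± 0.543 to 364 ± 151 CPM, the amino acid carrier Slc1a4 rose by 1.69 (SE 0.32) and the ligand Wnt9b by 1.27 (SE 0.27), while Car3, another carbonic anhydrase, fell by 1.4 (SE 0.35). Most members of the periportal and of the pericentral list were thus lower.

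Sugar metabolism showed isozymes moving apart. Of 44 tested genes of glycolysis, gluconeogenesis and glycogen, 13 were higher (29.5%) and 18 lower (40.9%). Of all genes 23.6% were higher and 15.2% lower. Pklr, the pyruvate kinase of liver, had 275, 186, 151 and 155 CPM in nodules and 466, 576, 451 and 539.7 CPM without DEN, whereas Pygb, the glycogen phosphorylase of brain, had 13.7, 10.5, 21.3 and 20.4 CPM against 3.99, 2.17, 2.69 and 2.93 CPM. Neither gene overlapped between groups. Pklr fell by 1.41 (SE 0.20, edgeR adjusted p = 0.000385), and Pkm, the form of most other tissues, rose by 1.07 (SE 0.21). Pygb rose by 2.48 (SE 0.26, edgeR adjusted p = 9.24e-05), and Pygl, the liver form, fell by 0.91 (SE 0.12). Hk1, the hexokinase of most tissues, rose by 2.68 (SE 0.29), Hk2 by 1.13 (SE 0.26), the aldolase Aldoa by 1.49 (SE 0.17), the phosphofructokinase Pfkp by 1.9 (SE 0.27), and Pfkfb3, which makes the activator of that step, by 2.52 (SE 0.52). The cytosolic Pck1 and the glucose-6-phosphatase G6pc, both of gluconeogenesis, fell by 1.38 (SE 0.30) and 1.61 (SE 0.40), and the mitochondrial Pck2 and the ubiquitous G6pc3 rose by 1.24 (SE 0.16) and 0.89 (SE 0.16). Of the lactate dehydrogenases, Ldha of muscle and liver fell by 1.04 (SE 0.15) and Ldhb of heart rose by 1.4 (SE 0.26).

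**Figure D3:**
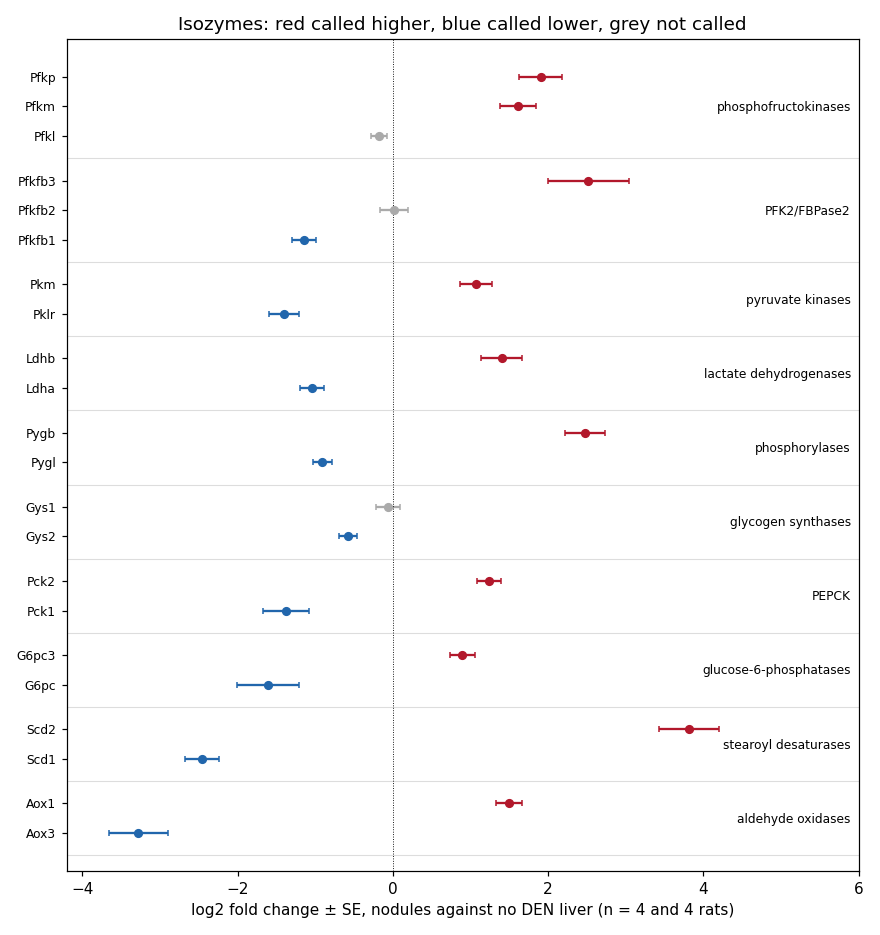
Log2 fold change ± SE of nodules against no DEN liver (x axis, 4 rats per group) for isozymes grouped by reaction; red called higher, blue called lower, grey not called. In 8 of the 10 groups at least 1 form lies on each side with a call, as for Pkm at 1.07 and Pklr at -1.41.

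Genes of both the breakdown and the synthesis of lipids fell. 29 of 39 tested genes of fatty acid oxidation and ketogenesis were lower and none was higher (1 without H25, H15 or H16), among them the mitochondrial dehydrogenase Acadm (by 0.92, SE 0.15), the acyl-CoA synthetases Acsl1 (by 1.65, SE 0.28) and Acsl5 (by 1.65, SE 0.16), the peroxisomal Ehhadh (by 1.52, SE 0.34) and Crot (by 1.62, SE 0.45). The carnitine palmitoyltransferase Cpt1a had 84.4, 141, 80.7 and 53.5 CPM against 112, 201, 223 and 329.7 CPM, and here the groups overlapped. For cholesterol and fatty acid synthesis 30 of 41 fell and 2 rose, with a median of -0.89. Fasn, fatty acid synthase, had 243, 312, 279.6 and 271 CPM in nodules and 874, 1904, 1075 and 886 CPM without DEN, with no overlap (log2 fold change -2.1, SE 0.25, edgeR adjusted p = 0.000163). Scd1, the stearoyl-CoA desaturase of liver, went from 7878 ± 1708 to 1429.8 ± 302 CPM, while Scd2, its counterpart in other tissues, rose from 6.95 ± 1.15 to 97.5 ± 59.6 CPM. Insig1, which holds back the SREBP factors, fell by 2.22 (SE 0.28), and the cholesterol synthesis enzyme Sqle was at 0.45 (SE 0.14) and not called. Without H25, H26 or H13, and with upper-quartile scaling or nodule 2 alone, Sqle was called, at 0.51 to 0.61, and 4 genes of the list were higher without 1 of these rats. Pnpla3, a lipase of lipid droplets, had 34.6, 26, 42.3 and 43.5 CPM in nodules, below all no DEN rats, of which H14 stood at 961 CPM against 120.1 to 222 CPM in the other 3.

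Secreted proteins of the hepatocyte were lower in 27 of 34 tested genes, and in 16 of them with upper-quartile scaling. With 1 rat left out as few as 19 were lower. Albumin Alb had 145854, 154880.0, 100243 and 92655 CPM in nodules and 206275, 215572, 207063 and 238622 CPM without DEN, below every no DEN rat in all 4 (log2 fold change -0.81, SE 0.22, edgeR adjusted p = 0.0113). Transthyretin Ttr fell by 0.85 (SE 0.28), apolipoprotein Apoa2 by 1.15 (SE 0.36), clotting factor F9 by 1.11 (SE 0.19), vitronectin Vtn by 1.02 (SE 0.25) and Itih1 by 0.99 (SE 0.17). Serpina1, alpha-1-antitrypsin, was at -0.50 (SE 0.17), which fell just short of the threshold and passed it without F03 (-0.57) or H25 (-0.56). The edgeR adjusted p of Ttr was 0.0517 to 0.0705 without H26, H14 or H16, and that of Apoa2 0.0523 and 0.064 without H16 and H26. With nodule 2 of each rat alone the edgeR adjusted p of Alb was 0.0533. Apoa1, the main protein of HDL, was the member that rose, from 1749 ± 227 to 4345 ± 538 CPM. In the acute phase list 2 of 19 rose, or 1 without H15 or H16, and 9 fell, or 5 with upper-quartile scaling. Lbp, which binds lipopolysaccharide, had 156, 149, 159.6 and 156 CPM against 42, 33, 54.5 and 37.2 CPM, with nodule values close to each other and far above the no DEN rats, while C-reactive protein Crp fell by 1.75 (SE 0.28) and the receptor Il1r1 by 0.92 (SE 0.23). Haptoglobin Hp had 14931, 12769.6, 8682 and 11021 CPM against 13912, 12110.5, 13063 and 14210.3 CPM, and the iron hormone Hamp 465, 379, 321 and 309 CPM against 353, 281, 421 and 180.3 CPM, both with overlapping ranges and not called. Among transcription factors of hepatocyte identity, 13 of 24 fell and 1, Tox3, rose (by 1.18, SE 0.21). Hnf4a, the nuclear receptor that holds the hepatocyte program, had 300.1, 346, 326 and 374 CPM in nodules and 689.9, 688, 858 and 723 CPM without DEN (log2 fold change -1.14, SE 0.13, edgeR adjusted p = 0.000116). The nodule values lay close together and were less than those of any no DEN rat. Cebpa fell by 1.08 (SE 0.11), Prox1 by 1.5 (SE 0.18), the retinoid receptor Rxra by 1.41 (SE 0.25) and the estrogen receptor Esr1 by 1.46 (SE 0.26), whereas Foxa2 at 0.61 (SE 0.34) was not called, or at 0.84 was called without H28. In whole tissue, fewer hepatocytes in a sample and less RNA of a gene per hepatocyte cannot be told apart, and markers of other cells moved with these falls.

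Stromal, vascular and biliary markers rose in the same nodules. In the list of stellate cells and matrix 28 of 39 rose and 3 fell, with a median of 0.93. Col1a1, a chain of fibrillar collagen, had 32.8, 13.6, 31.5 and 28.7 CPM in nodules and 6.56, 4.94, 3.4 and 6.32 CPM without DEN, and no rat overlapped. Its log2 fold change was 2.33 (SE 0.29, edgeR adjusted p = 0.000218). Smooth muscle actin Acta2 rose by 1.14 (SE 0.25), the inhibitor Timp1 by 1.57 (SE 0.22), Col3a1 by 0.77 (SE 0.12), the crosslinking enzyme Lox by 3.54 (SE 0.49) the matrix protein Thbs1 by 2.63 (SE 0.25) and the growth factor Tgfb2 by 3.39 (SE 0.37). The receptor Pdgfrb, a defining marker of stellate cells, was at -0.39 (SE 0.11), and Col1a2 is listed at 0 counts in all these libraries. Fibronectin Fn1, much of which hepatocytes make, fell by 0.92 (SE 0.16), the protease Mmp14 by 0.66 (SE 0.11) and its inhibitor Timp3 by 0.64 (SE 0.19). Without H16 the edgeR adjusted p of Timp3 was 0.0505. The summed level of the list ran from 2894 to 3507 CPM in no DEN liver and 2159 to 2566 CPM in nodules. The sum holds Fn1, from 2445 ± 300.2 to 1289.9 ± 199 CPM, and so fell although most members rose. Of 6 laminin chains of basement membrane tested, 5 rose, among them Lama4 by 1.66 (SE 0.19), Lamb3 by 1.02 (SE 0.27) and Lama5 from 1.89 ± 0.278 to 9.07 ± 1.14 CPM.

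Biliary and progenitor markers were higher in 17 of 20 tested genes and lower in 2. Krt19, the keratin of bile ducts, had 37.5, 28.2, 85.8 and 104 CPM in nodules and 1.95, 1.57, 1.63 and 1.7 CPM without DEN. The 2 groups were far apart, with H25 lowest and H28 highest (log2 fold change 5.21, SE 0.46, edgeR adjusted p = 4.21e-05). The duct factor Sox9 went from 0.494 ± 0.316 to 9.76 ± 2.43 CPM, the collagen receptor Ddr1 from 0.613 ± 0.153 to 39.6 ± 21 CPM, and Cd24 and the adhesion molecule Epcam rose by 4.44 (SE 0.24) and 1.56 (SE 0.18). Osteopontin Spp1 had 6.61, 1.84, 2.28 and 1.09 CPM against 0.998, 0.38, 0.192 and 0.17 CPM, and F03 was well above the other rats. The growth factor receptor Fgfr2 fell by 0.89 (SE 0.11). The list's summed level ran from 694 to 734 CPM in no DEN liver and 1087 to 1618 CPM in nodules. Krt7 is not among the genes counted.

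For endothelium 21 of 28 genes rose and none fell. Cd34, a marker of capillaries that sinusoids normally lack, had 0.80, 0.498, 0.992 and 0.986 CPM against 0.238, 0.163, 0.144 and 0.255 CPM, a log2 fold change of 2.01 (SE 0.36), at a level near 1 CPM. Stab2 and Lyve1, markers of sinusoidal endothelium itself, also rose, by 1.59 (SE 0.36) and 1.00 (SE 0.26), as did the sialomucin Emcn, by 1.59 (SE 0.23), the peptide Edn1, by 3.07 (SE 0.48), and the pan-endothelial Pecam1 and Vwf, by 0.58 (SE 0.16) and 0.84 (SE 0.15). Pecam1 was at 0.45 without H15, short of the threshold. In this list H25 was the lowest of the rats with nodules in 3 of the 21 genes that rose. The summed level ran from 236 to 489 CPM in no DEN liver and 499.6 to 660.5 CPM in nodules.

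Of 26 genes of Kupffer cells and macrophages, 16 rose and 1, Cd14, fell (by 0.71, SE 0.22). The defining Kupffer markers Clec4f, Marco, Vsig4 and Cd163 were at -0.07 (SE 0.18), -0.43 (SE 0.32), -0.43 (SE 0.20) and 0.23 (SE 0.21), and none was called. Cd68, a lysosomal protein of macrophages in general, had 43.8, 35.4, 35.5 and 41.7 CPM in nodules and 31.2, 26.3, 25.5 and 20.1 CPM without DEN and rose, and Csf1r at 0.45 (SE 0.13) was not called. Csf1r was called, at 0.51 to 0.59, without H13 or nodule 1 of F03 and with upper-quartile scaling or nodule 2 alone. The members with the largest rise were Mmp12, an elastase, which went from 0.368 ± 0.111 to 9.83 ± 1.55 CPM, then Cd9, by 2.33 (SE 0.23), the chemokine Ccl2, by 2.29 (SE 0.33), and Cd74, the chain that escorts MHC class II, from 123 ± 44.6 to 512 ± 352 CPM. Gpnmb rose by 1.91 (SE 0.16). Without H16, Cd68 was at 0.49, and the edgeR adjusted p of Cd14 was 0.0555, or 0.0635 without H26. Of 30 lymphocyte genes 12 rose, a share of 40.0%, and none fell (1 without H28 or H15), while the summed level of the list overlapped, at 180.5 to 238 CPM in no DEN liver and 182 to 211 CPM in nodules. Cd4, which rat macrophages also carry, rose by 0.72 (SE 0.12) and the leukocyte antigen Ptprc by 0.83 (SE 0.21), the T-cell kinase Zap70 by 1.36 (SE 0.33), Cd3g by 1.53 (SE 0.49) and Cd5 by 1.37 (SE 0.41), whereas Cd3e at 0.58 (SE 0.30) and Cd8a at 0.49 (SE 0.24) were not called. T-cell genes were near the limit of detection, with Cd8b at 0.404 ± 0.0787 CPM in nodules. Of 7 genes of granulocytes and mast cells 3 rose, or 6 with DESeq2 and 0 with nodule 1 alone, where Mcpt2 and Cpa3 fell below the filter and were not tested. The mast cell genes Mcpt2 and Cpa3 rose by 3.84 (SE 0.96) and 3.07 (SE 0.82), and their receptor Kit by 1.08 (SE 0.33). Nodule 2 of F03 stood apart, with 6.18 CPM for Mcpt2 and 5.09 CPM for Cpa3, against at most 1.32 CPM in the other 7 nodules, and without F03 the changes of Mcpt2 and Cpa3 were 2.78 and 2.16. Neutrophil genes S100a8 at 0.70 (SE 0.56) and S100a9 at 0.65 (SE 0.44) were not called. The edgeR adjusted p was 0.0598 for Cd5 and 0.0571 for Kit without H16, and 0.0635 and 0.0703 for Cd3g without H14 and H15. Of 9 markers of blood, mesothelium and neighbouring tissue, 2 rose (22.2%) and 3 fell (33.3%), against 23.6% and 15.2% of all genes. The mesothelial Msln (by 1.92, SE 0.38) and the muscle actin Acta1 (at least 16-fold, from 0 counts) rose. Cela1, the red cell anion exchanger Slc4a1 and the fat droplet gene Cidec fell (by 3.21, 1.18 and 0.61 on the log2 scale), and hemoglobin Hbb was at -0.30 (SE 0.22). Of these 9 genes 5 were lower without F03 or without its nodule 1, and 1 was higher without F03, its nodule 1, H26 or H28. The part that these other cells had in the falls of hepatocyte genes was not tested.

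Markers of fetal liver and of human liver tumors were higher in 9 of 16 tested genes and lower in 2, or in 0 without H28 and 1 without H14, H15 or H16. H19, an imprinted RNA of fetal liver, had 24.8, 21.1, 81.2 and 17.9 CPM in nodules and 1.19, 1.36, 0.959 and 3.44 CPM without DEN, and H26 was far above the other rats (log2 fold change 4.35, SE 0.61, edgeR adjusted p = 0.000418). Its neighbour Igf2 had 0.741, 0.791, 6.74 and 0.487 CPM against 0.57, 0.814, 1.1 and 2.08 CPM: only H26 lay above the no DEN range, and the gene was not called. Gpc3, a heparan sulfate proteoglycan, rose from 0.378 ± 0.0572 to 5.27 ± 2.1 CPM. Villin, Vil1, of brush borders and bile canaliculi, went from 0.0509 ± 0.059 to 5.05 ± 3.15 CPM. The trypsin inhibitor Spink1 and the imprinted Peg3 fell by 0.94 (SE 0.32) and 0.58 (SE 0.18). Spink1 was not called without H26, H28, H13, H15 or H16 (edgeR adjusted p = 0.0512 to 0.0776), nor Peg3 without H14 (0.0554) or H28, where it fell by 0.41. Afp, alpha-fetoprotein, had 33.6, 26.8, 35.7 and 20.1 CPM against 35.5, 28.9, 26.7 and 27.7 CPM, with overlapping ranges (log2 fold change -0.03, SE 0.17, edgeR adjusted p = 0.885).

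Growth factors and receptors were divided, with 17 of 40 higher and 14 lower. The EGF receptor Egfr fell from 159 ± 54.2 to 49.4 ± 18.8 CPM, the HGF receptor Met by 1.02 (SE 0.24) and the growth hormone receptor Ghr by 1.16 (SE 0.18). Igf1, which liver makes under growth hormone, had 284, 332, 226 and 167 CPM in nodules and 594, 660.5, 538 and 686 CPM without DEN, so every rat with nodules was below. Hgf itself was at 0.04 (SE 0.21). Among the genes that rose, activin subunit Inhbb gave a ratio of 61.2 (95% counting interval 20.9 to 298) from 3 counts without DEN, while Inhba, another activin subunit, fell by 1.56 (SE 0.38) and the subunits Inhbc and Inhbe of hepatocytes by 1.28 (SE 0.21) and 1.43 (SE 0.18). The activin antagonist Fst rose by 3.67 (SE 0.46) and Igfbp5 by 4.18 (SE 0.59), both near 1 CPM in nodules. Kitlg, the ligand of Kit, rose by 1.67 (SE 0.26), and the ligand Egf fell by 1.35 (SE 0.29).

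The genes that fell most were led by Prss32, a serine protease, from 7.39 ± 3.71 to 0.479 ± 0.186 CPM, and Irs3, an insulin receptor substrate, which had 3.88, 4.96, 3.67 and 6.79 CPM in nodules and 54.8, 85.6, 50.6 and 47 CPM without DEN. The elastase Cela1, Stac3, Mtmr7, Lrtm2, the vasopressin receptor Avpr1a, the methyltransferase Inmt and Paqr9 fell by 3.21, 2.8, 2.63, 2.55, 2.43, 2.43 and 2.42 on the log2 scale, with SE between 0.27 and 0.51. In Inmt and Lrtm2 the nodules of H26 and H28 were far below those of F03 and H25.

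To see what differed 6 weeks after dosing ended, the change at 20 weeks was set against the change of nodules at 14 weeks, each relative to no DEN liver of its age. In the test of that difference 10 of 11607 genes (0.0862%) had an adjusted p of at most 0.05, 9 with a lower and 1 with a higher change at 20 weeks. An unadjusted p under 0.05 was found for 378, a smaller share of the genes than the 0.05 that chance alone would give. DESeq2 called 29, which included these 10, and leaving out 1 of the 16 rats gave 6 to 15. Cdkn1a showed it plainly: nodules had 179, 118, 127 and 143 CPM at 14 weeks and 47.6, 50.4, 50.8 and 48.9 CPM at 20 weeks, and no DEN liver 32, 41.8, 38.1 and 39.1 and 33.9, 50.1, 32.4 and 58.7 CPM. Only the nodules at 14 weeks stood above the rest. The log2 fold change was 1.91 (SE 0.18) at 14 and 0.17 (SE 0.17) at 20 weeks (difference -1.73 (SE 0.24), edgeR adjusted p = 0.00937). Ccng1 went from 1.01 (SE 0.12) to 0.01 (SE 0.12) (edgeR adjusted p = 0.0206), a call lost without F03, H25, H14, H16, H23, H10, H11 or H12 (edgeR adjusted p = 0.0539 to 0.0847) and with rats numbered H alone (0.0545). Phlda3, a p53 target that restrains AKT, changed side, from 0.39 (SE 0.08) to -0.84 (SE 0.08) (edgeR adjusted p = 6.09e-05), since nodules had 42.8 ± 1.49 CPM at 14 and 21.8 ± 1.12 CPM at 20 weeks. These 3 genes belong to the p53 list, whose other defining members Mdm2 and Bax were not called here.

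The MYB factors Mybl2 and Mybl1 were higher at 14 weeks, with log2 fold changes of 3.44 (SE 0.34) and 3.34 (SE 0.25), than at 20 weeks, with 0.55 (SE 0.32) and 1.41 (SE 0.24) (edgeR adjusted p of the difference 0.0206 and 0.0446). Mybl2 had 9.79, 5.76, 6.97 and 6.23 CPM in nodules at 14 weeks and 1.79, 1.56, 2.23 and 2.36 CPM at 20 weeks, without overlap. The call of Mybl2 was lost without F03, H25, H14, H16, H09, H11 or H12 (edgeR adjusted p = 0.0539 to 0.0847) and with rats numbered H alone (0.0546). The call of Mybl1 held without H28 or H13, and was lost without any of the other 14 rats (edgeR adjusted p = 0.0565 to 0.176) and with rats numbered H alone (0.123). None of the other genes of the cell cycle list was called in this test. Abcb1b went from 5.0 (SE 0.36) to 2.26 (SE 0.32), Lama5 from 3.92 (SE 0.18) to 2.25 (SE 0.18) and the junction protein Jam3 from 0.95 (SE 0.11) to -0.08 (SE 0.11). The call of Abcb1b was lost without F03, H25, H14, H16, H21, H23, H10 or H11 (edgeR adjusted p = 0.0508 to 0.0847). Axin2 was at -0.31 (SE 0.11) at 14 weeks and -1.39 (SE 0.12) at 20 weeks, where no DEN liver itself rose from 10.9 ± 0.209 to 14.7 ± 0.988 CPM. Aox3, an aldehyde oxidase of liver, was the gene with a higher change at 20 weeks: nodules had 0.124, 0.207, 0.344 and 0.70 CPM at 14 and 9.54, 23.4, 10.9 and 5.62 CPM at 20 weeks, beside 118 ± 28.7 and 120.4 ± 19.5 CPM without DEN. It was thus low at both times and less so at the later one (difference 5.09 (SE 0.58), edgeR adjusted p = 0.00115). Nodules of the 2 times came from different rats, and these values come from 1 fit over both ages. At 14 weeks, pairs not lying wholly within the exons of a gene took 34.48% and 28.16% in the nodules of rat F06. In the other nodules of that age they took 22.95% to 25.52%. Without F06 10 genes were called, 9 of them the same.

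**Figure D4:**
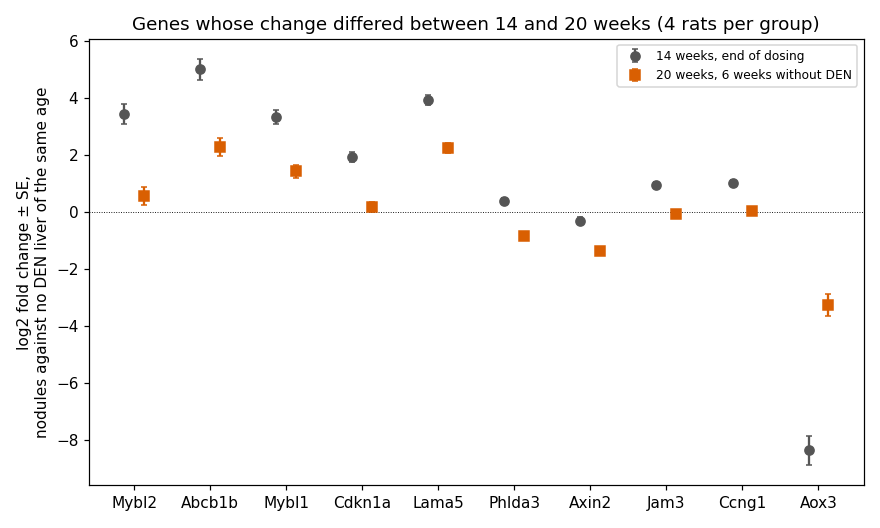
Log2 fold change ± SE of nodules against no DEN liver of the same age (y axis) at 14 weeks (circles) and 20 weeks (squares) for the 10 genes whose change differed between the times, 4 rats per group. Cdkn1a stood at 1.91 (SE 0.18) and 0.17 (SE 0.17), and Aox3 is the gene with the higher value at 20 weeks.

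Nodules were also set against the NT liver of the same 4 rats at 20 weeks. Without regard to the rat, 0 of 11546 genes were called by edgeR, although 2767 had an unadjusted p under 0.05 and DESeq2 called 902. With the rat as a block 1693 genes (14.7%) were called, 1063 (9.21%) higher and 630 (5.46%) lower in nodules. Nodules and NT liver of the same rat deviated together, with correlations of the deviations of 0.470 to 0.537 across genes. Values here come from the fit with the block, and CPM were scaled within these 8 values. The NT library of H26 held 160622633 pairs and the others 33915562 to 37281326.

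Slc15a1, a peptide carrier, had 2.91, 1.66, 9.25 and 8.98 CPM in nodules and 0.422, 0.242, 1.26 and 2.25 CPM in NT liver of the same rats, and rose by 2.55 (SE 0.18) with an edgeR adjusted p of 1.2e-06 with the block and 0.112 without it. Each nodule value was above that of its own rat's NT liver. Vwa7 rose by 2.51 (SE 0.13), the transcriptional cofactor Cited1 by 2.59 (SE 0.21), Dnaaf1 by 2.63 (SE 0.39) and Klhl14 by 2.36 (SE 0.22). Cyp2c11 had 1271, 1253, 643 and 370.4 CPM against 2899.8, 2092, 1979.6 and 1320.3 CPM and changed by -1.35 (SE 0.17) (edgeR adjusted p = 0.000297 with and 0.125 without the block), lower in all 4 rats. Cyp4a2, the NADPH oxidase Nox4, the provisional gene LOC298116 and Stac3 changed by -1.39 (SE 0.23), -1.37 (SE 0.20), -1.35 (SE 0.16) and -1.34 (SE 0.18). On all 4 rats, edgeR made these calls with the block and none of them without it.

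**Figure D5:**
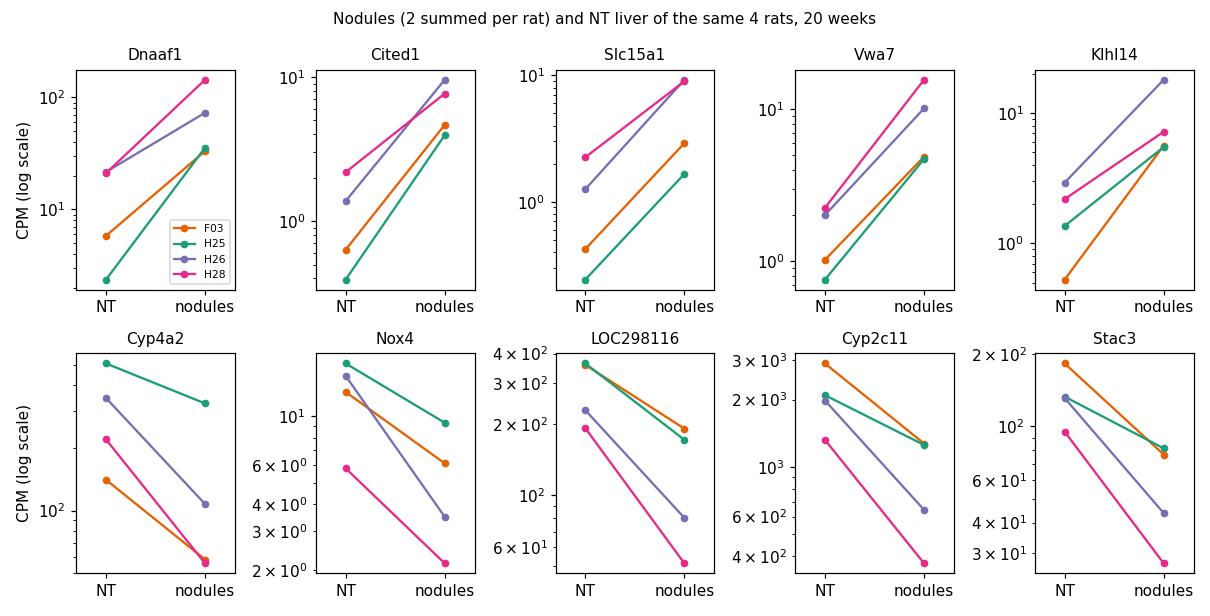
Levels in CPM (log axis) in NT liver and in nodules of the same rat at 20 weeks, 1 line per rat, for the 5 genes with the largest rise (upper row) and the largest fall (lower row) with the rat as block. Every line runs upward in the upper row and downward in the lower row, while rats differ in level.

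Lists were also counted against NT liver, where 9.21% of all genes were higher and 5.46% lower with the block. There 31 of 43 cell cycle genes were higher in nodules, as were 14 of 18 enzymes of preneoplastic foci and 21 of 30 NRF2 targets. Mki67 had 26.9, 16.3, 32.1 and 50.8 CPM in nodules and 13.7, 7.62, 17.9 and 22.4 CPM in NT liver (1.02 (SE 0.08), edgeR adjusted p = 3.94e-06 with and 0.147 without the block), and Gstp1 2657, 1309.9, 3099 and 3738 CPM and 622, 599, 1276 and 1425 CPM (1.47 (SE 0.16), edgeR adjusted p = 5.23e-05 with and 0.102 without). In NT liver Gstp1 was thus itself far above the no DEN rats, which had at most 11.1 CPM in the first comparison. Of the male-biased list 13 of 15 were lower, and of the P450 list 24 of 49. Of stellate and matrix genes 11 of 39 were higher, as were 10 of 20 biliary and progenitor genes, 1 of 28 endothelial genes and 0 of 30 lymphocyte genes. Of 41 genes of cholesterol and fatty acid synthesis 4 were lower and 2 higher. These counts and those against no DEN liver share the nodule libraries and are given side by side without a test between them.

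Single nodules differed within a rat as well as between rats. Over 8033 genes with a mean of at least 5 CPM, the median absolute log2 difference between the 2 nodules of a rat was 0.315 in F03, 0.185 in H25, 0.157 in H26 and 0.215 in H28. Pairs of nodules from different rats gave 0.108 to 0.443 (median 0.209) and pairs of no DEN livers 0.117 to 0.165. So nodules of the same rat were not always closer than nodules of different rats. In F03, nodule 1 had 16.3% of pairs aligned to several places, against 9.38% to 10.9% in the other nodules. The part of this in the difference within F03 was not tested. The gene with the largest spread was Klhl14, with 0.991, 8.8, 12, 0.58, 17.2, 17.8, 1.72 and 11.1 CPM in nodules 1 and 2 of F03, H25, H26 and H28 in turn. One nodule was high and the other low in 3 of the rats, and both were high in H26. Vdr, the vitamin D receptor, had 0.648, 5.3, 8.0, 2.16, 10.6, 24.6, 3.34 and 19.2 CPM in the same order, and also differed within each rat. Cpa1, a carboxypeptidase of the pancreas, had 0.496, 1.87, 1.37, 1.03, 12.7, 2.11, 5.24 and 20.5 CPM and the surface protein gene Ly6i 0.991, 1.09, 1.11, 0.132, 1.15, 1.99, 15.2 and 4.29 CPM. Cish, which growth hormone induces through STAT5, was alike in both nodules of a rat, with 44.6, 38.8, 27.6, 34.5, 28.4, 25, 2.22 and 3.03 CPM, and ranged among no DEN rats from 0.523 to 6.95 CPM in 3 and to 40.6 CPM in H16. It was not called, and without H16 it was, at 3.04.

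Among the rats, H25 stood nearest to no DEN liver. Its nodules were the lowest of the 4 rats in 60.9% of the 2642 genes that were higher and the highest in 73.7% of the 1705 that were lower. Within that rat nodule 2 was the lower one in 3 genes that rose, with Gstp1 at 785 CPM against 1962 CPM in nodule 1 of that rat, Mki67 at 10.2 against 23.8 CPM and Krt19 at 17.3 against 46.9 CPM. Against no DEN liver 4580 genes were called without that nodule, and 4241 without nodule 1 of F03, the library with most multiply aligned pairs.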

How the data were processed

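Polyadenylated RNA of rat liver was sequenced in read pairs from stranded libraries. Per the labels and the study's methods, the authors aligned reads to rn6 with STAR and deposited raw read counts per gene from HTSeq (reverse stranded, intersection-strict, pairs aligned to several places dropped). No molecular identifiers were used. Summary lines at the end of each table were removed here, and both nodules of each rat were summed into 1 value. The genes of the table were filtered with filterByExpr, scaled by TMM and tested with edgeR 4.0.16 in R 4.3.3 by the robust quasi-likelihood test with Benjamini-Hochberg adjustment over all genes tested. Each SE given is the size of the log2 fold change divided by the square root of the F of that test. The difference between 20 and 14 weeks was an interaction term. Nodules were tested against NT liver without and with the rat as block, since same-numbered samples come from the same animal. Genes with 0 counts in the low group were compared with a floor of 3 counts over the group, and those with 1 to 3 counts by a ratio with an exact 95% Poisson interval, which cover counting error only. Levels are not corrected for gene length, so genes were not compared with each other. Named were the 15 genes with the largest change each way against no DEN liver, with a mean of at least 5 CPM in the higher group and no overlap between rats, the 5 each way in the other comparisons, the 5 most variable between nodules, and per list the defining members and up to 4 called members each way. Akr7a3, Aox1, Car3, Ccnb2, Ephx1, G6pc3, Ghr, Gpnmb, Inhbc, Ldha, Ldhb, Pck2, Pygl, Rnf43, Tyms and Ugt1a5, and in the comparison of ages Axin2, Ccng1, Jam3 and Phlda3, were named after their values were seen. DESeq2 1.42.0, other scalings, filters and sample sets were tried as alternatives. The fits were tested on simulated data. The genes, lists and comparisons were chosen with earlier results of these data known. Promoters came from RefSeq on GRCr8, matched by symbol. Some genes that the rule picks are not reported here.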

Additional observations from a re-analysis of the deposited data

Results flagged for a closer look

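In groups of 4 rats, a rat was picked out where its gap to the nearest other rat, as a share of the range of the group, exceeded Dixon's critical value. For the genes named in the text 30 of 526 groups had such a rat (5.7%), and chance alone gives about 1 in 20. Among nodules H25 stood apart in A1bg (26.2 CPM), Acadm (667 CPM), Cidec (68.8 CPM) and Nefm (6.47 CPM). H26 stood apart in H19 (81.2 CPM), Igf2 (6.74 CPM) and Klhl14 (16.4 CPM), H28 in Ly6i (8.36 CPM), and F03 in Mcpt2 (3.66 CPM) and S100a9 (7.47 CPM).

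Among no DEN rats H14 stood apart with high values in Pnpla3 (961 CPM), Tat (1321 CPM), Acsl5 (739 CPM), Inhbe (85.4 CPM) and Peg3 (37.2 CPM), and with a low value in Plk1 (0.434 CPM). H16 stood apart in Cish (40.6 CPM), H19 (3.44 CPM), Paqr9 (199.8 CPM), Fgfr2 (78.4 CPM), Vtn (5213 CPM) and Cela1 (4.41 CPM, lowest), and H13 in Cyp2e1 (2855 CPM), Zap70 (0.760 CPM) and Tgfb2 (0.0950 CPM, lowest). At the level of single counts, Dnaaf1 in H15 (0.0480 CPM) and Nefm in H16 (0.0849 CPM) were picked out against 0 in the other rats, and Fst and Inhbb in H14 and Ugt2b7 in H16 for being at 0 CPM.

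In the test of the difference between the changes at 20 and 14 weeks, 10 genes passed. The difference in log2 fold change was -2.88 for Mybl2, -2.74 for Abcb1b, -1.92 for Mybl1, -1.73 for Cdkn1a, -1.67 for Lama5, -1.23 for Phlda3, -1.07 for Axin2, -1.02 for Jam3, -1.0 for Ccng1 and 5.09 for Aox3.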

How the results depend on the processing

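The count of 4347 genes against no DEN liver was 3843 to 4670 with DESeq2, other scalings, no filter, all 8 groups in 1 fit or 1 nodule per rat, and 3869 to 4671 with 1 rat left out. It was 2447 where the fold threshold was part of the test and 1946 at a fold of 2 with an adjusted p of 0.01, both stricter rules. Upper-quartile scaling gave 3165 higher and 1166 lower. The 10 genes of the difference between 20 and 14 weeks were 29 with DESeq2 and 6 to 15 with 1 rat left out (6 without F03, H25, H14, H16 or H11), and the cause was not tested. Against NT liver 0 genes became 902 with DESeq2, 1693 with the rat as replicate block and 0 to 445 with 1 rat left out, the 445 being without H25. With the block, leaving out 1 rat gave 1070 to 2078, the 1070 being without H26, whose NT library was deepest. In edgeR on all 4 rats, the genes named there as called were called with the block and not without it.

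No called gene named in the text changed direction in an alternative that tested it. With the fold threshold in the test 29 named genes lost their call, and at most 11 of those still tested did in any other fit at the same thresholds. With nodule 1 alone 8 named genes that were called fell below the filter and were not tested, and with nodule 2 alone 4. The same held for 2 each without F03, H26 or H28, and for 1 each without nodule 1 of F03 or nodule 2 of H25. Under DESeq2 the gene lost was Cyp3a2 (adjusted p = 0.0512). Among genes not called, signs turned under upper-quartile scaling for Afp (0.10), Clec4f (0.0673) and Jam3 (0.0692), with nodule 1 alone for Afp (0.12), Ccng1 (-0.11), Clec4f (0.0615), Hgf (-0.19) and Hp (0.0820), with nodule 2 alone for Jam3 (0.00517), without nodule 1 of F03 for Afp (0.00327) and without nodule 2 of H25 for Hgf (-0.0518). With 1 rat left out Afp ranged from -0.142 to 0.114, Ccng1 from -0.0680 to 0.102, Clec4f from -0.190 to 0.0733, Hgf from -0.128 to 0.162 and Igf2 from -0.776 to 1.38. Genes under 1 CPM rest on few counts.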

Other observations

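Gene families, some of whose members also stand in the lists, were looked at after their values were seen, against 23.6% of all genes higher and 15.2% lower. Of 10 annexins tested, which bind membranes with calcium, 8 rose and none fell, with a median log2 fold change of 2.21 against 0.01 over all genes. Anxa2 had 99, 55.3, 136 and 154 CPM in nodules and 9.88, 7.22, 5.75 and 6.49 CPM in no DEN liver, and no rat overlapped. Its partner S100a10 rose by 3.43 (SE 0.33), and 5 of 9 S100 genes rose. Of 8 keratins 6 rose. Of 14 tubulins 8 rose and 2 fell, with Tubb6 going from 3.3 ± 1.47 to 90.8 ± 50.9 CPM.

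Of 21 amino acid transporters 11 rose and 3 fell. In the synthesis of serine, Phgdh, its first enzyme, had 27.4, 11.8, 25.1 and 38.6 CPM in nodules and 1.43, 0.543, 0.959 and 0.467 CPM without DEN, and Psat1, the next one, rose by 3.05 (SE 0.33), the only 2 of 5 genes of serine and glycine synthesis that were called. Of 20 carriers of organic anions, cations and drugs 13 fell and 4 rose. Of 38 ABC transporters 12 rose and 11 fell.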
